A study of Drosophila melanogaster with 2 samples.

Results

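The regions described are the intronic peaks of Giant-GFP: 553 of the 1825 peaks on the main chromosome arms in the authors' pooled peak list, or 30.3% (95% Wilson interval 28.2% to 32.4%). A peak was taken when its summit lay inside an annotated gene, in no annotated exon, and more than 500 but at most 10000 bp from the nearest transcription start site (TSS) of a protein-coding gene. Position alone chose them, and no signal value was used beyond the authors' own threshold. The data are chromatin immunoprecipitation with sequencing (ChIP-seq) from 2 biological replicates of the transgenic Drosophila melanogaster strain gt-GFP, as whole embryos collected over 0 to 18 h. Both replicates carry the same eGFP fusion of giant (gt), were precipitated with an antibody against GFP, and form the only group. The embryos hold all cell types and stages of that interval together, so a region bound in few cells and one bound weakly in many cannot be told apart. The lists give no read counts, so depth is unknown, and intervals here cover counting error over peaks.

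Giant is a basic leucine zipper (bZIP) transcription factor and a gap-gene repressor that helps divide the early embryo along its anterior-posterior axis. Factors of this family bind short palindromic sites, and the site used here for Giant was TTACGTAA with at most 1 mismatch. Many Drosophila enhancers lie in introns, often the long first intron, and can act on the gene they sit in or on a neighbour.

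The sequences around the strongest intronic summits introduce the element that the motif results turn on, the 5-base core CAGTG. It is set out first in the 8 strongest intronic peaks that overlapped a peak of both replicates, leaving out 1 chromosome arm from which no sequence is given. Each line holds 201 bases of the + strand of the Release 6 genome (dm6), 5′ to 3′, centred on the summit. Capitals mark CAGTG or its reverse complement CACTG.
CG11050 (chr2L:6612614-6612814): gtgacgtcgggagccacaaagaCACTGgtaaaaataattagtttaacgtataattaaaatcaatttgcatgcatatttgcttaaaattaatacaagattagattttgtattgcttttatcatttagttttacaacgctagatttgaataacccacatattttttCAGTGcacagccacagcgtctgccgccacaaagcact
CG32772 (chrX:4910257-4910457): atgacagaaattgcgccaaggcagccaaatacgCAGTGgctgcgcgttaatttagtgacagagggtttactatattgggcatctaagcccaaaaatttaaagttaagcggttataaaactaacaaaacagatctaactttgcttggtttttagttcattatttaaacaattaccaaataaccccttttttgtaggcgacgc
Tlk (chrX:3742103-3742303): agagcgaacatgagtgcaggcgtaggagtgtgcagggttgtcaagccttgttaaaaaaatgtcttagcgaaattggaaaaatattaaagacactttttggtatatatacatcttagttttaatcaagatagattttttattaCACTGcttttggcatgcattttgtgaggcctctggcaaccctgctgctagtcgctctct
LPCAT (chrX:9579200-9579400): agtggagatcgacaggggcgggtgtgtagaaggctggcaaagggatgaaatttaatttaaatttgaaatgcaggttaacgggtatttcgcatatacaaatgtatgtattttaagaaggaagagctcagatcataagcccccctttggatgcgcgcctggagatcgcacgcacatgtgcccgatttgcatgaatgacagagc
CG9663 (chr2L:3302105-3302305): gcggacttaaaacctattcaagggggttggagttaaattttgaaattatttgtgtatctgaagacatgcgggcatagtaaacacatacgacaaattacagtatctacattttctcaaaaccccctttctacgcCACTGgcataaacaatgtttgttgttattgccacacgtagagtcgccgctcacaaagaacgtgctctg
mub (chr3L:21880381-21880581): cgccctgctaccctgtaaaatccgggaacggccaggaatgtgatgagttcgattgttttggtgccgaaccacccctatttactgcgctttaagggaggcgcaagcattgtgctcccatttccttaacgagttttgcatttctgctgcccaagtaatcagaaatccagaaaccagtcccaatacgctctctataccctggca
CG3726 (chrX:5918818-5919018): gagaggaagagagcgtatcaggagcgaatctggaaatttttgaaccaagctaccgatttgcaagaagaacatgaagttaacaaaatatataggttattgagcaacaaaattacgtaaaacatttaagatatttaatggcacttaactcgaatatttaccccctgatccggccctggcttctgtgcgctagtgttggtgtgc
CG16753 (chr3L:3060684-3060884): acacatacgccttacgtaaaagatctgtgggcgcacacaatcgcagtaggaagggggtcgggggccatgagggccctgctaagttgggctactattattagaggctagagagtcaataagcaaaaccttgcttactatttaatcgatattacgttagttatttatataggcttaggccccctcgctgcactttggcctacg
CG11050 held the core on both sides of the summit, at −76 and 66 bp. The intron holding that summit was 140 bp, shorter than the 201 bases shown. These cores stood too far apart for both to lie wholly within it. CG32772, Tlk and CG9663 held it once, at −65, 44 and 35 bp. LPCAT, mub, CG3726 and CG16753 held none in these windows. The core is short and also occurs away from summits: 332 cores were aligned from summit windows and 165 from windows 1000 bp away, as given below.

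A longer form of the core, ACAGTGG, is called the G-type core below. The next 3 sequences are the strongest intronic peaks found in both replicates that carried it within 100 bp of the summit, drawn in the same way. Capitals mark ACAGTGG or CCACTGT.
Trl (chr3L:14759392-14759592): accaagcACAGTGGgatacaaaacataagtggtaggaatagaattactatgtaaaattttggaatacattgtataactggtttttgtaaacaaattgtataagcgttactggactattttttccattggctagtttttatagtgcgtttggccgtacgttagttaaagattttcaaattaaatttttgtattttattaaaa
NFAT (chrX:13640427-13640627): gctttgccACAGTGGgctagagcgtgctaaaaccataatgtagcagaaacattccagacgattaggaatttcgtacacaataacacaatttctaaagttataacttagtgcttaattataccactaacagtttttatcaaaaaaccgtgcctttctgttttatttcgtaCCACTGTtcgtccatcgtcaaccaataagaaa
norpA (chrX:4324871-4325071): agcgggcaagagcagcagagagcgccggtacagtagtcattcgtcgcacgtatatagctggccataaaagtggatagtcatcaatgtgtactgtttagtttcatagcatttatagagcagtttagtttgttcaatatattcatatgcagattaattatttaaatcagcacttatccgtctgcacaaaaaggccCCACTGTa
The G-type core stood at −90 bp in Trl and 96 bp in norpA. NFAT held it on both sides of the summit, at −89 and 72 bp. No match in these 3 windows lay within 50 bp of the summit.

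Of the 20 strongest intronic peaks of both replicates, 3 held a Giant site within 100 bp. The 41 bases around the match nearest to each summit are shown, with the 8 bases of the site in capitals.
CG3726 (chrX:5918911-5918951): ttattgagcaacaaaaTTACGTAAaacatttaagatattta
CG16753 (chr3L:3060816-3060856): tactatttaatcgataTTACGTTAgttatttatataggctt
Raf (chrX:2297642-2297682): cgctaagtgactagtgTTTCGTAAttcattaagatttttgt
The match in CG3726 was the full palindrome, 13 bp from the summit, and the matches in CG16753 and Raf each had 1 mismatch and lay 52 and 71 bp away. CG16753 also held the full palindrome, farther out at −85 bp, as the 201 bases above show.

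The strongest intronic peak lay 1027 bp from the TSS of CG11050 (FBgn0031836). Its signal, the value of the authors' peak caller, was 828.1 in the pooled list, 350.9 in replicate 1 and 468.5 in replicate 2. It ranked 4 among all pooled peaks. Adf1, which encodes a DNA-binding transcription factor, had the next highest peak at 664.9, with 310.6 in replicate 1 and 352.7 in replicate 2. HmgZ, a high-mobility-group chromatin protein gene, had 631.5 in the pooled list, 245.7 in replicate 1 and 369.1 in replicate 2. CG32772 had 616.3 in the pooled list, 270.1 in replicate 1 and 340.0 in replicate 2. These 4 were the intronic peaks among the 20 strongest of the pooled list, and 23 of the 100 strongest were intronic.

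Among the next peaks, Tlk, the Tousled-like kinase gene, had a peak of 501.0 in the pooled list, with 225.8 in replicate 1 and 270.9 in replicate 2. Hr3, a nuclear receptor of the ecdysone cascade, had 462.0 in the pooled list, 191.4 in replicate 1 and 279.4 in replicate 2, at 7858 bp from the TSS. Trl, which encodes GAGA factor, had 368.5 in the pooled list, 123.8 in replicate 1 and 238.7 in replicate 2. Raf, the kinase between Ras and MAPK signalling, had 341.8 in the pooled list, 129.6 in replicate 1 and 208.2 in replicate 2. Replicate 2 had the higher value in each of these 4 peaks. The other members of the first 20 were, in pooled signal, LPCAT (469.9), CG9663 (431.2 and, at a second summit, 317.0), mub (420.3), CG3726 (412.6), CG12769 (408.0), CG16753 (381.7), edl (356.3), Pak3 (314.0), NFAT (308.6), Gug (307.7) and norpA (307.5). The peak nearest to CG16753 sat in an intron of CG32486. edl encodes an inhibitor of Ets factors, Pak3 a kinase, Gug the co-repressor Atrophin, mub an RNA-binding protein and norpA a phospholipase C of phototransduction.

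Signals across all 553 peaks ran from 2.85 to 828.1 with a median of 89.6 (quartiles 69.4 and 127.3), against a median of 93.7 over the pooled list. The 23 peaks with a signal under 20 all lay within 300 bp of a stronger pooled peak. A peak of each replicate's own thresholded list overlapped 202 intronic peaks, or 36.5% (Wilson interval 32.6% to 40.6%). Only replicate 1 had a peak at 97, only replicate 2 at 88, and neither at 166. Median pooled signal was 146.6 for peaks found in both, 85.8 for replicate 1 alone, 86.6 for replicate 2 alone and 66.7 for neither. All of the 50 strongest were found in both replicates, as were 99 of the 100 strongest, against 8 of the 100 weakest. A match needed 1 bp of overlap, so a weak summit could share the replicate peak of a close stronger one. All 3 peaks at sima, the weakest at 5.44, counted as found in both. Of the 553, 544 had a region in both replicates' long ranked lists, which hold 104826 and 127147 main-arm regions. Across these 544 the replicates' signals had a Spearman rho of 0.545, a description over regions that share the 2 libraries. Close summits could also share a ranked region and its values.

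**Figure D1:**
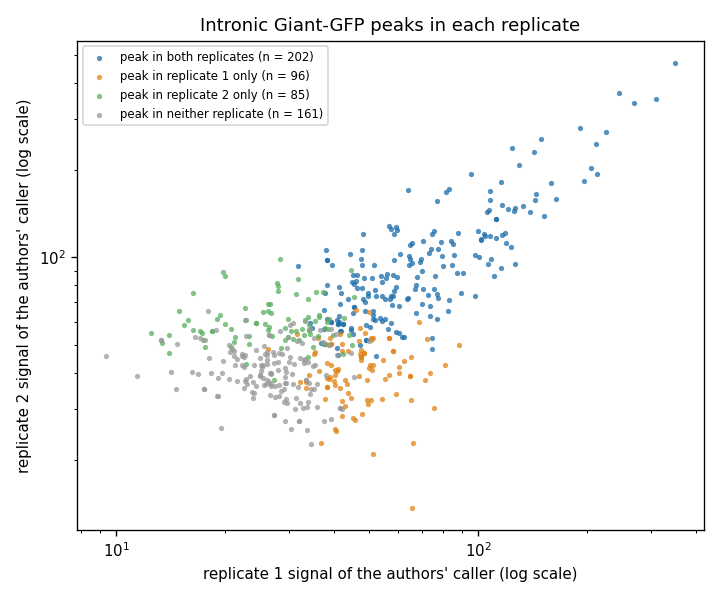
Signal of 544 intronic peaks in replicate 1 (x, log scale) and replicate 2 (y, log scale), each point 1 peak, coloured by the replicates' own thresholded lists. Peaks of both replicates fill the upper right, where signals follow each other, while peaks of 1 replicate or neither lie at low signal in at least 1 library.

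Intronic peaks were found in both replicates less often than promoter peaks, and no difference from intergenic peaks at the same distances was called. The share found in both replicates was 36.5% for intronic peaks and 35.8% for 215 intergenic peaks (77 peaks, Wilson interval 29.7% to 42.4%), a difference of 0.714 percentage points (Fisher's exact test, two-sided, adjusted p = 0.950). Among 776 promoter peaks, with summits within 500 bp of a TSS, it was 51.2% (397 peaks), so the intronic share was lower by 14.6 points (adjusted p = 2.65e-06 by Fisher's exact test). The authors' conservative list held 75.05% of intronic peaks, 74.4% of intergenic peaks and 84.8% of promoter peaks. The intronic minus promoter difference was −9.75 points (adjusted p = 0.000108 by Fisher's exact test). Above the pooled median signal lay 46.1% of intronic, 45.1% of intergenic and 59.3% of promoter peaks, 13.2 points fewer for intronic than for promoter peaks (adjusted p = 3.37e-05 by Fisher's exact test). Among peaks above that median alone, the intronic minus promoter difference in the share found in both replicates was −6.19 points and was not called (adjusted p = 0.305 by Fisher's exact test). The p-values were adjusted over 38 comparisons of classes, and peaks were treated as independent although 27 neighbouring pairs of intronic summits lay within 300 bp.

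Of the 553 intronic peaks 402, or 72.7%, lay in the first intron of at least 1 transcript, against 54.6% of the bases of eligible intronic sequence. The median intron holding a summit was 9048 bp (quartiles 3927 and 17294 bp), and the median intron over eligible bases was 8200 bp (quartiles 2798 and 17881 bp). These values were set side by side with no test, and the eligible bases were not matched to the peaks for distance to the TSS. The gene holding the summit was also the gene of the nearest TSS for 454 peaks (82.1%), and for 99 the nearest TSS belonged to another gene. By strand, 365 summits lay downstream and 188 upstream of the nearest TSS. Of the upstream ones, 124 lay in the same gene as that TSS, between its alternative start sites. A protein-coding gene held 543 of the summits, and 10 lay only in noncoding genes.

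Intronic peaks were denser near the TSS than far from it. At 500 to 1000 bp the intronic sequence held 31.4 peaks per Mb (95% Poisson interval 26.2 to 37.5; 124 peaks), at 1000 to 2000 bp 21.3 (17.8 to 25.2; 135 peaks), at 2000 to 5000 bp 13.6 (11.6 to 15.9; 165 peaks) and at 5000 to 10000 bp 11.9 (9.93 to 14.1; 129 peaks). The first of these densities was 2.64 times the last (95% interval 2.05 to 3.41). Intergenic sequence held 17.3 peaks per Mb (12.1 to 23.9) at 500 to 1000 bp and 8.67 (6.65 to 11.1) at 5000 to 10000 bp. The 2 intervals of the nearest distance did not overlap between intronic and intergenic sequence. Those of the farthest distance overlapped. Median signal was 93.4 for intronic peaks at 500 to 1000 bp and 88.8 at 5000 to 10000 bp.

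**Figure D2:**
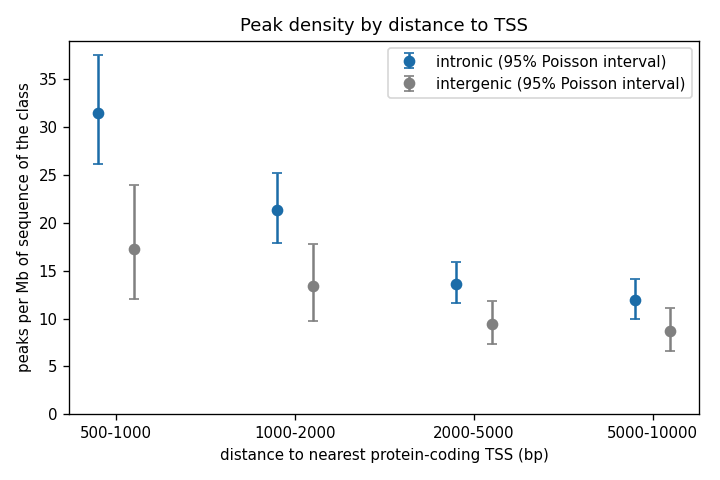
Peaks per Mb of intronic (blue) and intergenic (grey) sequence, by distance to the nearest protein-coding TSS, with 95% Poisson intervals. Intronic density falls to 11.9 peaks per Mb in the farthest bin and is above the intergenic value in every bin.

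The bounds of the rule cut through a continuous range of peaks. Just inside the lower bound lay ITP (503 bp, signal 62.6), mats (504 bp, 74.5) and CG31523 (505 bp, 77.4). Just outside it, among promoter peaks whether in an intron or not, lay CG6602 (491 bp, 117.3), ph-p (489 bp, 937.9) and CG9184 (486 bp, 71.3). Just inside the upper bound lay Efa6 (9981 bp, 75.4), Hr4 (9957 bp, 161.6) and sbm (9944 bp, 123.4). Just outside it lay CG15143 (10197 bp, 101.1), Oct-TyrR (10224 bp, 56.0) and CG43121 (10287 bp, 85.3).

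The CAGTG core was the leading sequence shared by intronic summits. Each summit window of 100 bp either side was paired with a window 1000 bp away that overlapped no pooled peak. The centre of that window met the same intronic rule, while windows of either kind could hold exon bases. Such a flank was found for 478 peaks, and 75 had none. Of 16 motifs, the G-type core was the one called: 61 summits (12.8%) against 23 flanks (4.81%) held ACAGTGG, a ratio of 2.65 (exact McNemar test, two-sided, adjusted p = 0.000312 over the 16). Summits had 37.99% ± 7.21 GC and flanks 39.9% ± 7.65 (SD, n = 478 each). Over all 553 intronic peaks 13.4% held the G-type core, against 2.42% of 33218 windows of the same length tiled over eligible intronic sequence. The core was known from earlier results on these data, so the p-value of the G-type core is not independent support for it.

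The same windows were then compared for all 7-base words, counting a word and its reverse complement as 1. Of these words 13, or 0.159%, were more frequent at intronic summits than in flanks (exact McNemar test, two-sided, adjusted p under 0.05), and 1, GGGGGAA, was less frequent (10 summits against 36 flanks). Of the 13, 7 contained CAGTG on 1 strand, whereas 48 of all words do. The word of smallest p, CAGTGTA, was in 53 summits against 9 flanks (adjusted p = 4.26e-05 by exact McNemar test). CAGTGCA was in 60 against 16 and CACTGAG in 40 against 7. CACAGTG was in 52 against 18, CACTGTA in 43 against 13 and ACAGTGG in 61 against 23. Words that overlap the core in part were AGTGCAC (42 against 10) and AGTGCAT (34 against 7). The words of another kind among the first 10 were ATATTAA (79 against 32) and AGAGAAA (67 against 28). The count changed with the peaks and windows used: 5 words were called in replicate 1's list, 1 in replicate 2's, 0 above the median signal (exact McNemar test, 167 at an unadjusted p under 0.05), 6 with the lower bound at 1000 bp, 3 with the upper bound at 5000 bp, and 1 outside the 13 with a 50 bp window. Of the 48 words with the core, 39 had more summits than flanks and 8 had fewer.

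When the 332 cores at summits were aligned, the bases around them differed from those around 165 cores in flanks. Counting the first base of CAGTG as 1, position 7 was A in 50.9% of summit cores and 30.3% of flank cores. T stood in 47.9%, 47.6% and 45.5% of summit cores at positions −6, −5 and −4, against 26.7%, 26.7% and 26.1% of flank cores. The base before the one preceding the core, position −1, was C in 40.4% of summit cores and 23.03% of flank cores. The preference for A gives a second form, CAGTGNA, called the A-type core below; it was chosen after the words were seen, so its tests are not independent of them. The A-type core was in 156 summits (32.6%) against 51 flanks (10.7%), a ratio of 3.06 (exact McNemar test, two-sided, unadjusted p = 4.47e-16). Of the 553 intronic peaks 177 (32.0%) held it, against 9.66% of the tiled intronic windows. Either form was present at 216 peaks (39.1%) and both at 35; a G-type core followed by A is also an A-type core.

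Both forms stood beside the summit more than on it. Over all 553 peaks the A-type core had 0.923 matches per kb within 25 bp of the summit, 1.92 at 25 to 50 bp, 2.46 at 50 to 100 bp, 1.63 at 100 to 150 bp and 0.717 at 200 to 500 bp. The G-type core had 4 matches within 25 bp (0.148 per kb), 15 at 25 to 50 bp (0.542), 71 at 50 to 100 bp (1.28) and 36 at 100 to 150 bp (0.651). Its density at 200 to 500 bp was 0.205 per kb. The intronic peaks of each replicate's own list, with their own summits, gave the same order: the G-type core had 1.72 matches per kb at 50 to 100 bp and 0.195 within 25 bp in replicate 1, and 1.74 and 0.329 in replicate 2. At promoter summits the G-type core had 0.812 matches per kb at 50 to 100 bp and 0.131 within 25 bp. Of the 553 intronic peaks 99 had at least 2 cores of either form within 150 bp, and 72 had them on both sides of the summit. With the window cut to 50 bp either side the G-type core was no longer called against flanks. Low density near the summit was not particular to the core. The word GAGAG had 2.36 matches per kb within 25 bp and 1.88 at 25 to 50 bp, against 4.41 at 100 to 150 bp and 3.53 at 200 to 500 bp.

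**Figure D3:**
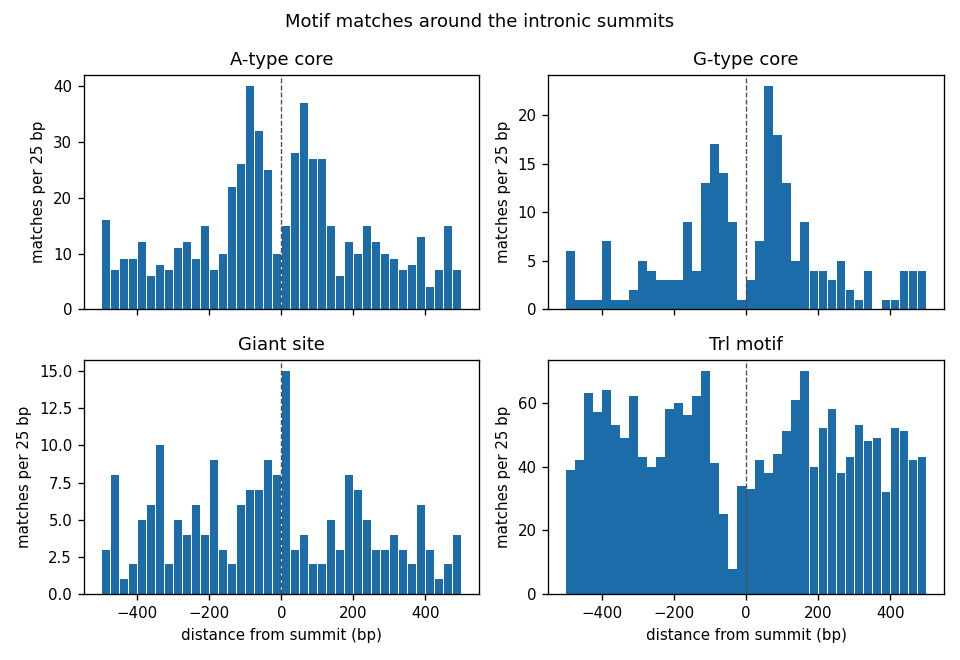
Matches per 25 bp around the 553 intronic summits (x, distance from the summit in bp) for the A-type core, the G-type core, the Giant site with at most 1 mismatch, and the Trl motif GAGAG, overlapping matches counted. The A-type and G-type cores form peaks on both sides of the summit, 50 to 100 bp away, and the Giant site has its highest bin at the summit. The Trl motif is also sparse near the summit, with its lowest bin at −50 to −25 bp.

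The Giant site had another profile. It had 23 matches within 25 bp of the summit, or 0.849 per kb, against 0.398 at 25 to 50 bp, 0.380 at 50 to 100 bp and 0.298 at 200 to 500 bp. Within 25 bp and at 25 to 50 bp, replicate 1's own list gave 0.715 and 0.637, and replicate 2's 0.922 and 0.581. Promoter summits gave 0.631 and 0.773. Intergenic summits, with 4 matches within 25 bp, gave 0.380 and 0.279, against 0.372 at 200 to 500 bp. Within 100 bp, 44 intronic summits (9.21%) against 32 flanks (6.69%) held the Giant site, which was not called (adjusted p = 0.750 by exact McNemar test). A permuted site, TAACGTTA with at most 1 mismatch, was in 37 summits against 25 flanks. Of the 553 peaks 50 (9.04%) held the Giant site, against 7.67% of tiled intronic windows. The Zelda site CAGGTA, bound by an early activator of the zygotic genome, was in 29 summits against 15 flanks and did not pass the adjustment (exact McNemar test, adjusted p = 0.390).

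The share of peaks with each motif differed in its relation to signal. In 4 equal groups of the intronic peaks ordered from the weakest to the strongest signal, 8.63%, 11.6%, 10.9% and 22.5% held the G-type core. The A-type core was in 26.6%, 37.7%, 37.7% and 26.1%, and the Giant site in 7.19%, 5.07%, 10.9% and 13.0%. Median signal was 108.0 in the 74 peaks with the G-type core and 88.4 in the 479 without it, and 54.1% and 33.8% of them were found in both replicates. The 177 peaks with the A-type core had a median of 89.6 and the 376 without it 89.8. These values are descriptions with no test.

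**Figure D4:**
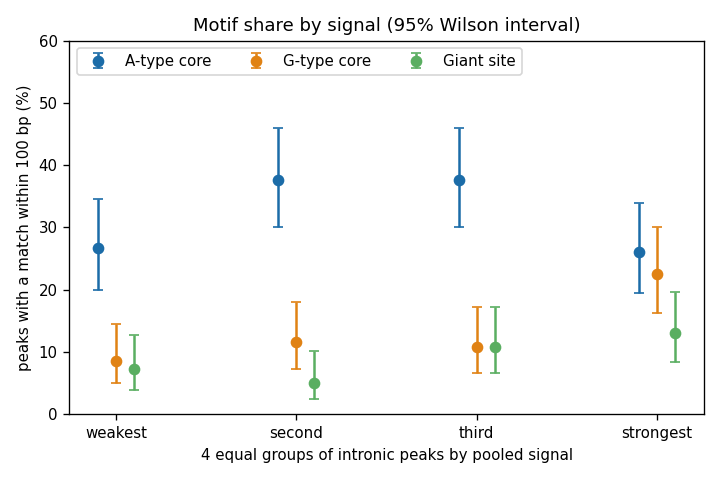
Share of intronic peaks with a match within 100 bp of the summit (y, %), in 4 equal groups by pooled signal from weakest to strongest, with 95% Wilson intervals. The G-type core reaches 22.5% in the strongest group, while the A-type core has its higher shares, 37.7%, in the middle groups.

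Against promoter peaks 4 of the 16 motifs were called, and against intergenic peaks none of the 16 was called (Fisher's exact test), with 3 at an unadjusted p under 0.05. The promoter count was 1 in replicate 2's list, 2 above the median signal or with the bound at 5000 bp, and 7 with a 200 bp window. The intergenic count was 1 in replicate 2's list, with protein-coding genes only or with a 200 bp window, and 2 with a 50 bp window. The palindrome TATCGATA, bound by DREF and BEAF at housekeeping promoters, was in 2 intronic peaks (0.362%) and 45 promoter peaks (5.80%; Fisher's exact test, two-sided, adjusted p = 2.88e-07). The E-box CATATG was in 9.40% of intronic and 4.38% of promoter peaks (adjusted p = 0.00301 by Fisher's exact test). GAGAG was in 28.0% of intronic and 21.0% of promoter peaks (adjusted p = 0.0181 by Fisher's exact test). The E-box CAGCTG was in 7.05% of intronic and 11.98% of promoter peaks (adjusted p = 0.0181 by Fisher's exact test), a difference whose sign turned to 0.137 points more in introns with a window of 50 bp. The A-type core was in 32.0% of intronic peaks, 30.2% of intergenic peaks and 16.0% of promoter peaks, 16.0 points more in introns than at promoters (Fisher's exact test, unadjusted p = 8.70e-12). This form was chosen from the intronic summits, so that p-value is not independent support for a difference. The G-type core was in 13.4% of intronic and 6.98% of intergenic peaks (adjusted p = 0.0523 by Fisher's exact test). The GATA word AGATAA was in 14.5% of intronic and 7.91% of intergenic peaks, with the same adjusted p. The Giant site was in 9.04% of intronic, 6.51% of intergenic and 11.7% of promoter peaks, and neither difference was called.

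By nearest TSS the intronic peaks fell to 426 genes, or 4.01% of the 10621 protein-coding genes with intronic sequence that met the rule. One peak was assigned to 339 genes, 2 to 59, 3 to 18, 4 to 8 and 5 to 2. The genes with 5 were Tlk and Raf. The Raf peaks spanned 6.395 kb with signals of 341.8, 237.3, 136.5, 135.6 and 81.7, and 4 of them were found in both replicates. The genes with 4 were Hr4, CHES-1-like, sick, shn, S, unc-119, ush and msn. At unc-119 the 4 signals ran from 111.8 to 134.2 within 2.341 kb, and all were found in both replicates, whereas none of the 4 at msn (32.5 to 84.7) was. The genes with 3 were CG32264, babos, Tis11, CG11811, Src64B, drongo, sima, Eip75B, Socs36E, tou, apt, Unc-76, CG13917, Mnt, raskol, SNF4Agamma, CG33752 and chn. At CG11811, drongo, sima, Socs36E, Unc-76, raskol, SNF4Agamma and CG33752 the weakest of the 3 had a signal under 20. Each of those weakest peaks lay within 300 bp of a stronger pooled peak. All 3 at babos (140.3 to 220.2) were found in both replicates.

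Genes of receptor tyrosine kinase and TGF-beta signalling were the nearest to more intronic peaks than the eligible sequence nearest to them would give. For 16 lists of genes, the number of genes with a peak was set beside the number expected if peaks fell evenly over eligible intronic sequence. This expectation made no allowance for the higher peak density near the TSS. How far that density enters the list differences was not tested. Peaks and sequence both went to the gene of the nearest TSS, which need not be the gene whose intron holds them. In the EGFR and FGF pathway list 9 of 24 genes had a peak against 3.53 expected, with 19 peaks against 4.05. They were Raf (341.8), the secreted EGFR inhibitor aos (278.3), the Ets repressor aop (215.0), the ligand-processing factor S (175.0), and at lower signal ths, ru, sty, stumps and pnt. Of the 19 peaks 17 lay inside the gene named, while that of sty lay in an intron of eIF5B and 1 of the 2 of ru in Ptp61F. Without Raf, 8 of 23 genes had a peak against 3.35 expected. In the TGF-beta pathway list 7 of 20 genes had a peak against 2.63 expected: the Smad gene Mad (235.9), the zinc-finger cofactor shn (177.7), the type II receptor wit (125.8), the ligand dpp (105.4), and sog, Dad and brk. The peak of brk lay in CG1677. Cytoskeleton and motor genes had 8 of 32 against 3.69 expected, led by Act5C (229.4), the dynein heavy chain gene Dhc64C (211.1), Moe (200.8) and Msp300 (152.1); the peak of Act5C lay in a neighbouring long noncoding RNA gene. Among bZIP factors, the family of Giant itself, 5 of 17 genes had a peak against 2.02 expected: slbo (293.9), Pdp1 (84.2), cnc (77.6), vri (69.0) and REPTOR (62.9). The peak of slbo also lay in a long noncoding RNA gene and not in slbo.

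Lists of neuronal genes had fewer than expected by length, and so did lists of other kinds. Wnt and Hedgehog genes had 1 of 25 against 2.79 expected, and cell polarity genes 1 of 15 against 2.62. With replicate 2's list the Wnt and Hedgehog count was 2 genes against 1.66. None of 39 ion channel genes had an intronic peak against 4.84 expected, and 2 of 32 neural regulators had one against 5.77 expected, grh (157.9) and elav (106.0). Of 49 axon guidance and cell adhesion genes 5 had a peak against 8.54 expected: kirre (172.6), sli (108.3), Fas3 (100.5), Ten-a (94.3) and Dscam2 (71.1). Ecdysone and nuclear receptor genes were at the level of their length, with 4 of 18 against 4.20 expected: Hr3 (462.0), Hr4 (277.6), Eip75B (113.8) and EcR (102.8). With the distance bound at 5000 bp it was 1 gene against 2.92. Circadian and RNA-binding genes had 5 of 24 against 5.59 expected, led by Rbp9 (94.7), but 0 genes in either replicate's own list (against 3.50 and 3.46) and 1 against 2.91 above the median signal. The remaining lists each had 2 genes or fewer: Trl and Psc (140.9) of the Polycomb and trithorax list (1.57 expected, and 4 genes against 0.936 in replicate 1's list), zfh1 (230.8) and how (65.2) of the mesoderm list, InR (215.1), neur (143.8), boi (295.9) and ck (88.1). None of 11 gap and pair-rule genes had one, where 0.614 was expected. In all, 51 of 388 list genes had an intronic peak. No expectation by length is given for this total, so it shows neither an excess nor a deficit. The counts are descriptions, without a test of a list. With each replicate's own list the EGFR and FGF count was 6 or 7 genes and the TGF-beta count 5 or 6. The bZIP count was 3 genes with replicate 1's list against 1.22 expected, and 1 gene with replicate 2's against 1.21, while axon guidance had 6 genes against 5.14 with replicate 2's. Above the median signal the bZIP count was 1 gene against 1.01 expected. When a peak was given to the gene holding its summit in place of the nearest TSS, 3 ion channel and 8 axon guidance genes had one.

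**Figure D5:**
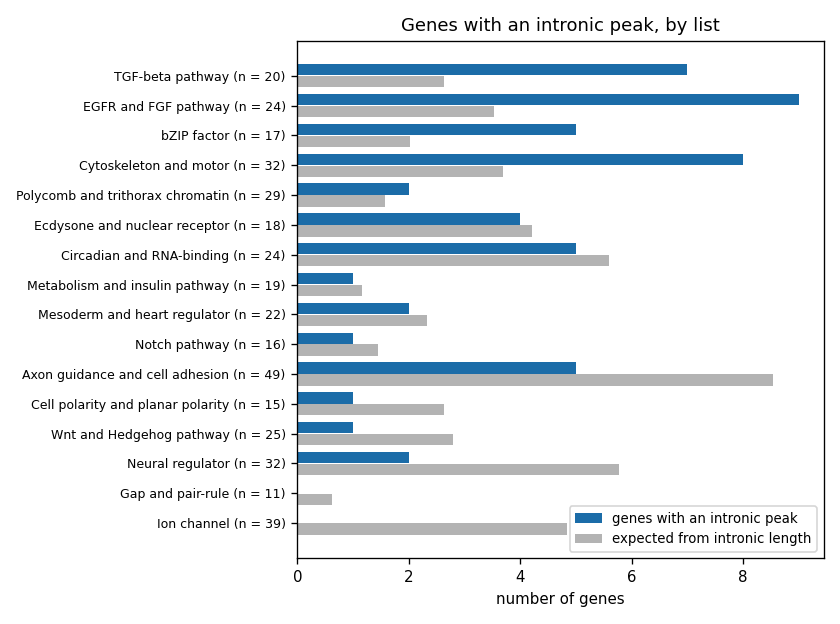
Number of genes with an intronic peak (blue) and the number expected from the length of eligible intronic sequence (grey) in 16 gene lists, where n counts the list's genes with such sequence. The TGF-beta, EGFR and FGF, bZIP and cytoskeleton lists lie above their expectation, and the ion channel list is at 0.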

How the data were processed

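Peak lists of 2 ChIP-seq replicates were used, all on dm6 per the labels. Aligner and peak caller were not given in the sources used here. Deposited were a ranked and a thresholded list per replicate, and series-level lists, of which the longer thresholded list (pooled) and the shorter one (conservative) were used. The deposited signal column holds a peak value from the authors' caller, of unstated scaling, which was used to rank or describe peaks within a list. The deposited summit offset gave the summit. No counts of reads were given, so depth is unknown.

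Summits were placed on Ensembl release 115 genes and Release 6 sequence, the assembly of the files, with Python 3.11.15, scipy 1.17.1 and statsmodels 0.14.6. Replicate peaks were matched by an overlap of at least 1 bp. The protein-coding gene of the nearest TSS took each peak. Motif matches on either strand were counted within 100 bp of a summit, overlapping ones included. Flanks lay 1000 bp away, at the higher coordinate where it met the rule. Exact McNemar tests (16 motifs, and separately all 7-base words) and Fisher's exact tests (38 comparisons) were two-sided with Benjamini-Hochberg adjustment, called under 0.05, and the word scan was tested on simulated data. The members, motifs, lists and tests were chosen with earlier results of these data known. Of 429 list symbols 6 were matched through synonyms, and 4 were not matched and are not analysed here.

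Named were the 20 strongest peaks of both replicates, genes with at least 3 peaks, up to 4 leading genes per list, peaks at the rule's bounds and the 10 words of smallest p; other genes, such as the weaker ones of the first lists and the peaks with the G-type core or Giant site whose sequence is given, were picked with their values known. The alternatives were the conservative list, each replicate's own list, peaks above the median signal, other distance bounds, windows, flanks, overlaps and annotations, and close peaks left out. Added after the data were seen were the A-type core, the split of X by distance from gt, the EGFR and FGF list without Raf, and the introns over eligible bases.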

Additional observations from a re-analysis of the deposited data

How the results depend on the processing

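No paired analysis was possible because the series has 1 group. The number of intronic peaks was 310 and 314 in the replicates' own lists and 255 above the median signal, against 553. The ratio of density near and far from the TSS was 2.40 and 3.92 with 1 replicate left out. Above the median signal, the share found in both replicates was −6.19 points against promoter peaks, no longer called, and −2.32 points against intergenic peaks, uncalled as before. With close peaks left out, the conservative-list share was −0.0478 points against intergenic peaks, also uncalled. Motifs called against flanks numbered 1, but 0 with a 50 bp window (exact McNemar test, 0 at an unadjusted p under 0.05) and 2 with a 200 bp window. Against intergenic peaks 0 were called, but 1 in replicate 2's list, with protein-coding genes only and with a 200 bp window, and 2 with a 50 bp window. Against promoter peaks 4 were called, between 1 and 4 in a single replicate's list, 2 above the median signal, 2 with the bound at 5000 bp and 7 with a 200 bp window. CAGCTG turned to 0.137 points with a 50 bp window. Of the 13 words, 5 remained in replicate 1's list and 1 in replicate 2's list. Above the median signal 0 words were called by exact McNemar test (167 at an unadjusted p under 0.05, 212 pairs), against 6 with the bound at 1000 bp, 3 with it at 5000 bp and 1 with a 50 bp window. The causes were not tested, except that smaller lists leave fewer pairs. The ratio of the A-type core to flanks stayed between 2.62 (peaks above the median signal) and 3.80 (the other flank first) in all alternatives run. List genes with an intronic peak numbered 51, and 34 above the median signal. The other summary values moved by less than their spread or by under 1.5 times; single lists moved more, as given with their counts. Without read counts, weak peaks missed for want of depth cannot be told from absent ones.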

Other observations

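Intronic peaks were dense around gt itself, on the X chromosome, where distances from gt were picked with the values known. Within 200 kb of gt lay 10 intronic peaks of 5 genes, or 70.2 per Mb of eligible intronic sequence (95% Poisson interval 33.7 to 129.1), against 19.02 (15.9 to 22.6) on the rest of X. Within 500 kb there were 20 peaks, or 56.5 per Mb (34.5 to 87.3), against 18.1 (14.97 to 21.7) beyond. Median signal within 200 kb was 136.1, against 97.9 on the rest of X, and 7 of the 10 peaks were found in both replicates, against 43.3% on the rest of X. Within 500 kb it was 104.3, against 99.997 beyond, and 50% of the peaks were found in both replicates, against 44.4% beyond. The 10 were the 5 of Raf, 123.0 to 129.4 kb from gt, 2 of z (76.2 and 73.4), and 1 each of boi (295.9, at 39.8 kb), CG14050 (111.8) and egh (154.5). Raf is also the leading gene of the EGFR and FGF list, and Hr4, with 4 peaks, lies 442.7 to 483.2 kb away. The difference was not tested. Whether the density near gt, the Raf peaks included, relates to the tagged copy of gt cannot be told from the peak lists.

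X as a whole held 137 intronic peaks, 24.8% of all and 20.1 per Mb (16.9 to 23.8), against 20.5% of the eligible sequence. The large autosomal arms held between 15.3 and 17.1 per Mb. Chromosome 4 held 0 peaks in 0.451 Mb of eligible sequence, which allows up to 8.17 per Mb.

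The A-type core was in 40.6% of intronic peaks at 2000 to 5000 bp from a TSS, against 26.6% at 500 to 1000 bp, 30.4% at 1000 to 2000 bp and 27.9% at 5000 to 10000 bp, given as values with no test.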
